A study of Mus musculus with 2 samples.

Results

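The genes described here encode the collagens of the mouse kidney other than type IV. They were taken as every gene in the deposited gene list whose symbol has the form Col, number, a, number, with the type IV chains left out, and they come to 38 of the 32285 genes listed. Pools of whole kidneys gave 2 single-nucleus RNA sequencing libraries, 1 for each age. The E18.5 library was made from pooled male and female embryos of the genotype Mycf/f;Mycnf/f (no Cre) on a mixed background, and the floxed alleles were therefore intact. The P3 library was made from pooled male and female Wild type pups, labelled C57BL/6J, whereas the study's methods describe the mice of both ages as of mixed background. Age, genotype, strain as labelled, library and software release changed together between the libraries and cannot be told apart, and with 1 library an age there was no replicate and no test. Levels are given as CPM, the unique molecular identifier (UMI) counts of a gene per 1000000 UMIs of the same nuclei. The intervals are exact 95% intervals that cover counting error only.

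Collagens are secreted matrix proteins whose chains wind into a stiff helix. Fibrillar collagens polymerise into the rope-like fibers of connective tissue, fibril-associated collagens decorate the surface of those fibers, and type VI collagen forms beaded microfilaments around cells. Other members form hexagonal networks, sit at the edge of basement membranes or are anchored in the plasma membrane. In the kidney, the interstitial fibroblasts are the main source of fibrillar collagen, and basement membranes are built on type IV collagen and laminin instead.

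Of the 38 genes, 11 encode fibrillar chains, 9 fibril-associated chains, 6 beaded filament (type VI) chains, 4 transmembrane chains, 3 short chain network chains and 2 multiplexins, which are basement membrane proteoglycans. Col7a1, which encodes the anchoring fibril collagen, stands alone, and Col26a1 and Col28a1 were grouped as other. Some members are neighbors in the genome. Col3a1 and Col5a2 lie on opposite strands of chromosome 1 with 24.6 kb between them, and Col6a2 and Col6a1 lie on the same strand of chromosome 10 with 85.2 kb between them. Col6a6, Col6a5 and Col6a4 follow each other on chromosome 9. Col18a1 is antisense to part of Slc19a1, Col10a1 to part of Nt5dc1 and Col9a3 to part of Tcfl5. In all, 23 of the 38 members overlap another annotated gene on either strand, most of them Gm or Rik gene models. How reads in such overlaps were assigned is not given in the sources used here, so the values of these members are less certain.

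The promoter windows of 3 members with different stromal patterns were taken as the 120 bases before the RefSeq start (GRCm38.p6), with CCAAT in capitals. Col1a2 was abundant in all interstitial zones, Col8a1 was highest in the nephrogenic zone, and Col23a1 was highest in the papilla among zones of 100 or more nuclei.
Col1a2, chr6:4505498-4505617, plus strand: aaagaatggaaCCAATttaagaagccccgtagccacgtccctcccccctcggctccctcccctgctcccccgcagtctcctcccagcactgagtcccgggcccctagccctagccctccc
Col8a1, chr16:57754738-57754857, minus strand: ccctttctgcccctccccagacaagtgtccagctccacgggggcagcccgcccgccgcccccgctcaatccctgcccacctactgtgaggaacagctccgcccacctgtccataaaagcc
Col23a1, chr11:51289800-51289919, plus strand: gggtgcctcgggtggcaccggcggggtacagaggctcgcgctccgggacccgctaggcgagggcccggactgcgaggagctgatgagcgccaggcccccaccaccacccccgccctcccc
The RefSeq start of Col1a2 used here lies 125 bases from the start of its principal GENCODE transcript. RefSeq windows were matched for 30 of the 38 members. CCAAT or its reverse complement ATTGG was in 4 of the 30 (13.3%) and in 22.1% of the windows of 27025 genes. GGGCGG or its reverse complement CCGCCC was in 14 of the 30 (46.7%) and in 26.9% of all windows. These matches are descriptions of letters and not of binding.

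After quality limits 21270 nuclei remained at E18.5 and 11765 at P3, with median depths of 3132.5 and 4534 UMIs. Doublet calls covered 16.4% and 16.8% of them, and 69 barcodes were deposited in both libraries. Clusters were named from markers without using any collagen gene. The interstitium-like nuclei numbered 4801 at E18.5 and 3079 at P3. The marker check left several clusters unnamed, and 5480 nuclei at E18.5 (52.8% called doublets) and 2316 at P3 (69.9%) are in this state. A further 2909 nuclei at E18.5 and 1569 at P3 fell into 1 shallow cluster each, with medians of 1257 and 970 UMIs.

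The 38 collagen genes together held 168419 UMIs, or 2178 CPM, at E18.5 and 145666 UMIs, or 2079 CPM, at P3. In interstitium-like nuclei their summed level was 3949 CPM (3917 to 3980) in the E18.5 library and 4426 (4392 to 4460) in the P3 library. In proximal tubule-like nuclei it was 1099 (1063 to 1136) and 802 (784 to 821). Endothelium-like nuclei held 1480 and 1407 CPM. The sum was thus several-fold higher in interstitium-like than in tubule nuclei at both ages. The highest summed level was in a cluster led by Ebf2 and Sntg1, of 131 nuclei in one library and 71 in the other, with 8293 CPM at E18.5 and 7232 at P3.

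**Figure D1:**
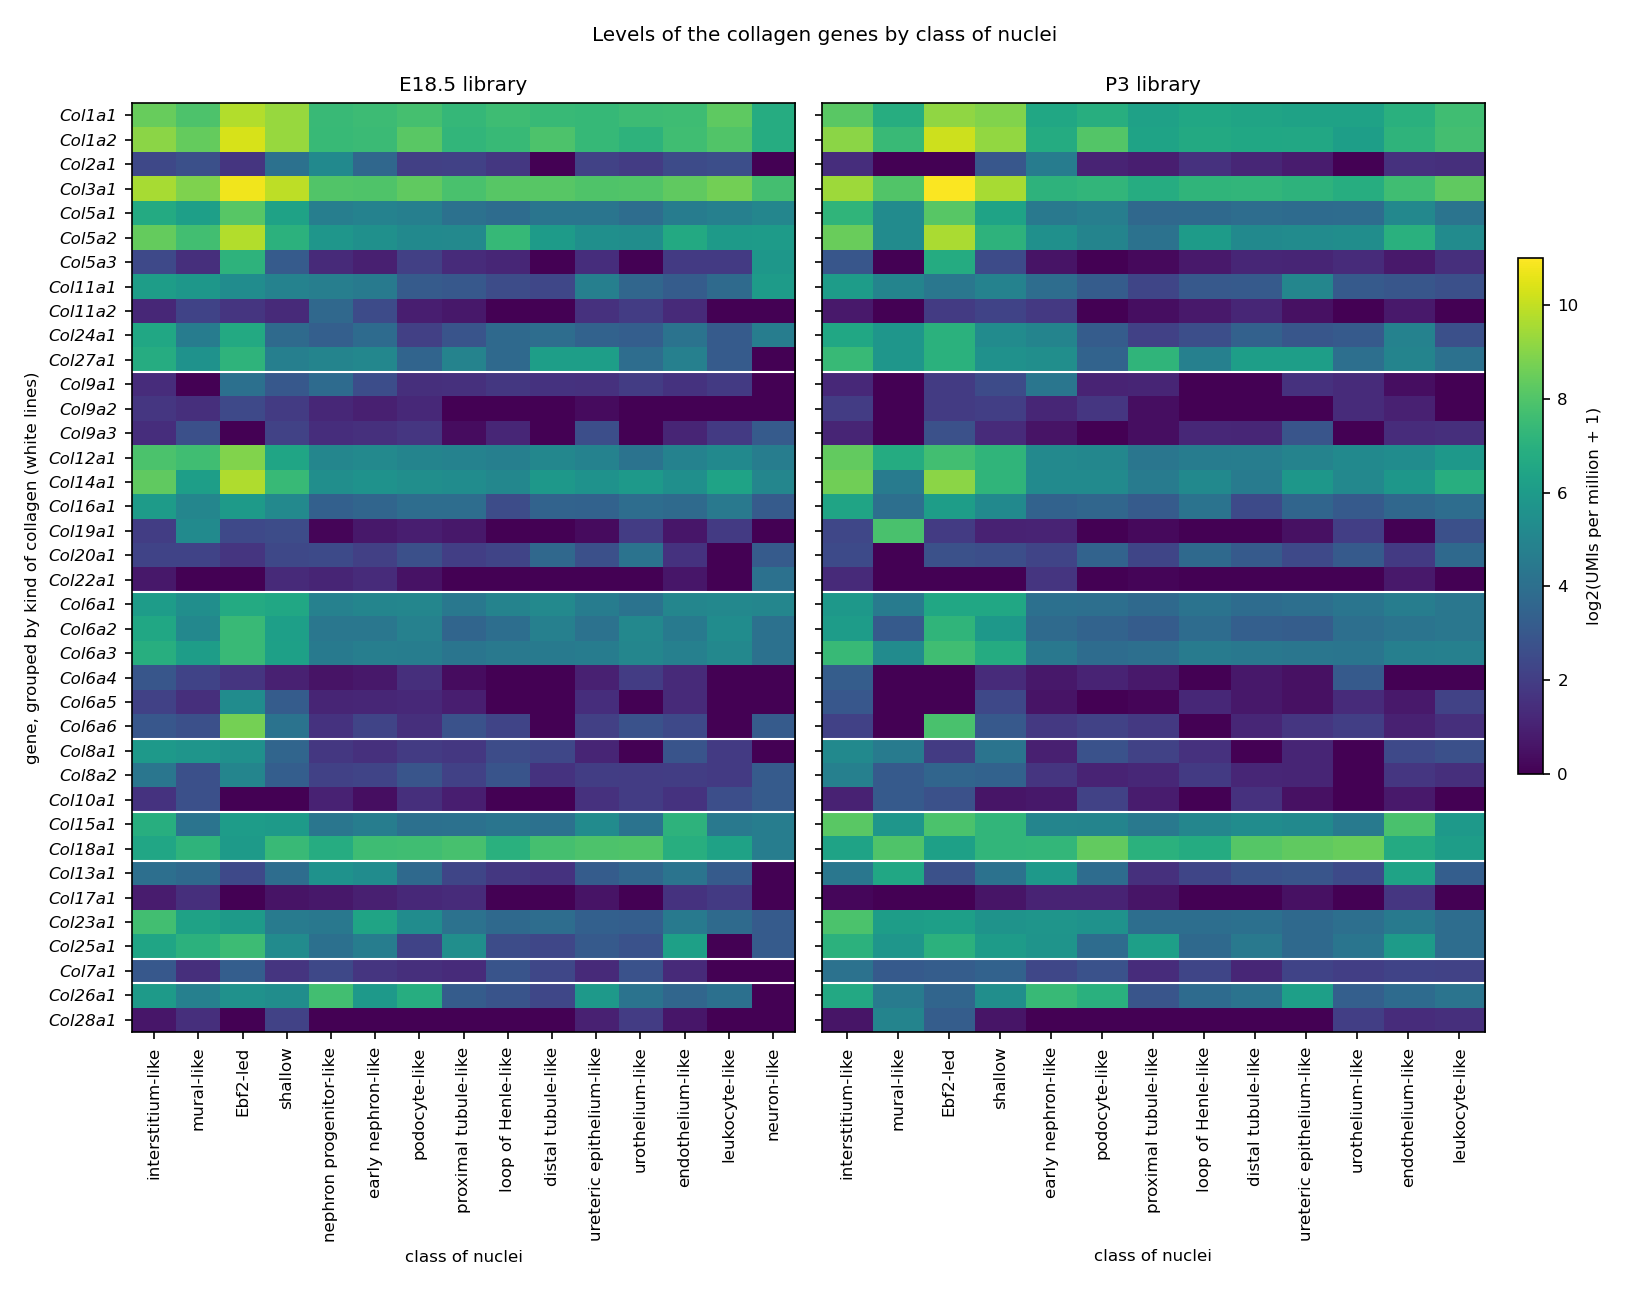
Level of each collagen gene (rows, grouped by kind) in each class of nuclei (columns) in the E18.5 and P3 libraries, as log2(CPM + 1). Col1a1, Col1a2 and Col3a1 are bright in every class and brightest in the Ebf2-led nuclei, while Col26a1, Col18a1 and Col13a1 peak outside the interstitium.

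Interstitium-like nuclei were first compared with all other nuclei of the same library. A gene was compared when it had at least 50 UMIs over the nuclei compared, both sides together. A sparse gene can thus reach this minimum only through the side where it is higher. A compared gene was called higher at a ratio of 2 or more and lower at 0.5 or less. At E18.5, 20 of 38 members were higher, against 5.54% of the 17919 genes compared, and 3 were lower, against 14.9%. At P3, 25 of 37 were higher, against 7.66% of 17543 genes, and 3 were lower, against 20.6%. The lower members were Col2a1 and Col9a1 at both ages, with Col11a2 at E18.5 and Col17a1, from 2 interstitium-like UMIs, at P3. The median log2 ratio of the members was 1.09 and 1.56, and that of all genes was −0.12 and −0.20. Of the basement membrane lists, none of the 6 type IV collagen genes was higher at either age and 2 of the 11 laminin genes were. Against the named classes outside the stroma alone, 25 of 35 members were higher at E18.5 (all genes, 6.67%) and 25 of 33 at P3 (9.4%).

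Among the fibrillar chains, 7 of 11 were higher at E18.5 and 8 of 11 at P3. Col1a2, a chain of type I collagen, stood at 536 CPM in interstitium-like and 235 in other nuclei at E18.5 (ratio 2.28, 2.22 to 2.34). At P3 it stood at 542 and 160 (3.39, 3.29 to 3.49). Col1a1, its partner chain, gave ratios of 1.69 (1.63 to 1.74) and 2.68 (2.57 to 2.78), so it was called at P3 alone. Whether the ages differed in this was not tested. Col3a1, the type III chain, stood at 755 and 345 at E18.5 (2.19, 2.14 to 2.24) and at 675 and 207 at P3 (3.26, 3.18 to 3.35). When levels were averaged over nuclei in place of summed UMIs, Col1a2 and Col3a1 at E18.5 fell to 1.88 and 1.80 and Col1a1 at P3 to 1.64, all below the limit.

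Of the type V and XI chains, which join type I and II fibers and limit their width, Col5a1, Col5a2 and Col11a1 were higher at both ages. Col5a2 gave 3.48 (3.35 to 3.61) and 4.17 (4.01 to 4.34), and Col5a1 gave 2.93 (2.74 to 3.12) and 4.21 (3.95 to 4.48). Col11a1 gave 3.0 (2.77 to 3.25) and 3.57 (3.27 to 3.90). Against all other nuclei Col5a3 was called at P3 alone, with 1.28 (0.954 to 1.69) and 2.95 (2.24 to 3.88). Of its 211 UMIs in the other nuclei at E18.5, 61 lay in the Ebf2-led nuclei. Col24a1 gave 4.60 (4.26 to 4.96) and 3.5 (3.25 to 3.77). Col27a1 was called at E18.5 alone, with 2.18 (2.06 to 2.32) and 1.89 (1.80 to 1.98). Col2a1, the cartilage fibril chain, went the other way at 0.365 (0.278 to 0.470) and 0.271 (0.173 to 0.406), and Col11a2 gave 0.367 (0.223 to 0.574) and 0.699 (0.318 to 1.39).

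Of the 9 fibril-associated chains, 4 were higher at E18.5 and 6 at P3. Col12a1 stood at 235 against 57.4 CPM at E18.5 (4.09, 3.90 to 4.28) and at 328 against 60.9 at P3 (5.38, 5.15 to 5.63). Col14a1 stood at 317 against 83.5 (3.79, 3.64 to 3.94) and 397 against 78.9 (5.03, 4.83 to 5.23). At E18.5 Col14a1 gave a UMI in 45.8% of interstitium-like nuclei (median depth 2966 UMIs) against 13.8% in the proximal tubule (3806.5). At P3 these shares were 57.9% (4116) against 13.5% (6137). With each nucleus thinned to 1000 UMIs, the shares were 23.4% and 4.85% at E18.5 and 28.2% and 2.0% at P3. Col16a1 gave 3.75 (3.43 to 4.09) and 4.81 (4.42 to 5.24).

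The sparser fibril-associated chains were less uniform. Col9a2 gave 2.63 (1.68 to 4.07) and 2.80 (1.84 to 4.23) from 36 and 43 interstitium-like UMIs. Col19a1 gave 1.87 (1.29 to 2.67) and 2.65 (1.87 to 3.74). Col22a1 was at 0.934 (0.418 to 1.89) and 2.52 (1.40 to 4.45), from 10 and 22 interstitium-like UMIs. At P3 Col22a1 reached the minimum of 50 UMIs only with those 22. Col20a1 was near equal at 0.853 (0.625 to 1.14) and 0.985 (0.741 to 1.29). Col9a1 was lower at 0.359 (0.228 to 0.540) and 0.299 (0.182 to 0.467).

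All 3 main chains of the type VI beaded filament were higher at both ages. Col6a3 gave 3.41 (3.20 to 3.63) and 4.30 (4.05 to 4.55), Col6a2 gave 3.07 (2.87 to 3.29) and 3.53 (3.23 to 3.86), and Col6a1 gave 2.09 (1.94 to 2.25) and 2.90 (2.65 to 3.18). Col6a1 fell below the limit with averaging over nuclei at both ages (1.65 and 1.82) and with called doublets removed at E18.5 (1.91). Of the alternative chains, Col6a4 gave 4.98 (3.70 to 6.74) and 6.34 (4.73 to 8.56), and Col6a5 gave 1.54 (1.09 to 2.14) and 6.51 (4.67 to 9.16). Col6a6 was not raised over all other nuclei, with 0.846 (0.680 to 1.04) and 0.843 (0.608 to 1.15), and its highest level was in the Ebf2-led nuclei.

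Of the short chain network collagens, Col8a1 and Col8a2 were higher at both ages and Col10a1 was not called, with 1.44 (0.932 to 2.18) and 0.991 (0.533 to 1.74). Col8a1 gave 5.86 (5.29 to 6.51) and 4.75 (4.17 to 5.41), and Col8a2 gave 3.53 (3.01 to 4.15) and 5.89 (5.02 to 6.93). The multiplexins split. Col15a1 was higher at 2.54 (2.39 to 2.69) and 3.67 (3.52 to 3.83), while Col18a1, the endostatin precursor, was below 1 at 0.548 (0.518 to 0.580) and 0.510 (0.480 to 0.541).

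Among the transmembrane collagens, Col23a1 gave 3.84 (3.65 to 4.03) and 4.16 (3.96 to 4.37). Col25a1 gave 1.86 (1.74 to 1.98) and 2.24 (2.12 to 2.37), and Col13a1 gave 0.787 (0.681 to 0.906) and 0.812 (0.712 to 0.923). Col7a1 gave 2.46 (1.93 to 3.14) and 3.49 (2.92 to 4.17). Col26a1 turned from 0.832 (0.775 to 0.892) to 1.62 (1.52 to 1.72), and Col28a1 held 9 and 8 interstitium-like UMIs. Col9a3 (169 and 84 UMIs in the whole libraries), Col10a1 (121 and 77) and Col17a1 (78 and 51) stayed under 10 CPM in every named class and zone.

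**Figure D2:**
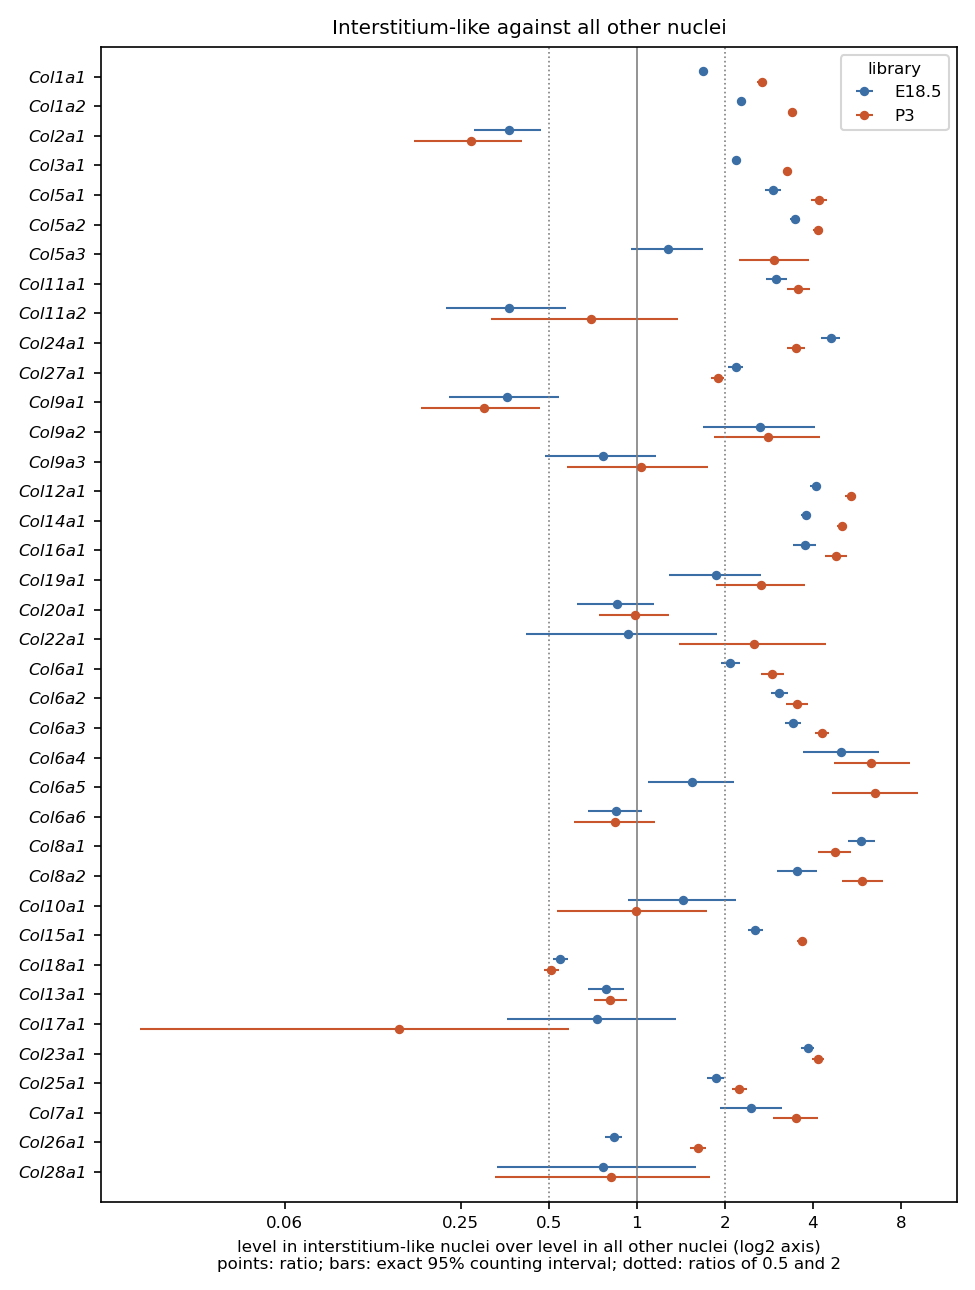
Ratio of each collagen gene's level in interstitium-like nuclei to its level in all other nuclei (log2 axis), for E18.5 (blue) and P3 (orange), with exact 95% counting intervals as bars. Most members lie right of the dotted line at 2, and Col2a1 and Col9a1 lie left of 0.5 at both ages.

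The interstitium held the highest level of the named classes for 21 members at E18.5, against 3.63% of all genes compared, and for 24 at P3, against 5.85%. The Ebf2-led and shallow clusters are not named classes, and the Ebf2-led level was above that of the interstitium for 16 of the 21 and 12 of the 24, the shallow level for 6 and 5. Col26a1 was highest in nephron progenitor-like nuclei at E18.5, with 204 CPM, followed by podocyte-like nuclei with 115. At P3 it was highest in early nephron-like nuclei with 169, followed by podocyte-like nuclei with 127. No nephron progenitor-like cluster was named at P3. The 3 members that were lower in the interstitium at E18.5 also led in nephron progenitor-like nuclei, Col2a1 with 36.6, Col9a1 with 13.2 and Col11a2 with 12.2 CPM. At P3 early nephron-like nuclei held Col2a1 at 23.7 and Col9a1 at 19.2.

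Col18a1 was highest in urothelium-like nuclei, with 251 CPM at E18.5 and 344 at P3, and ureteric epithelium-like nuclei held 242 and 319. Podocyte-like nuclei held 194 and 331 CPM. Col15a1 was high in the endothelium, at 139 CPM at E18.5, above the 119 of the interstitium, and at 229 against 293 at P3. Col13a1 stood at 47.4 in nephron progenitor-like nuclei at E18.5 and at 81.7 in endothelium-like and 91.9 in mural-like nuclei at P3, the last from 12 UMIs.

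Some of these genes had sizeable levels in further classes. Col25a1 was at 132 in mural-like and 75.9 in endothelium-like nuclei at E18.5, and at 72.5 in proximal tubule-like nuclei at P3. Col27a1 was at 144 CPM in proximal tubule-like nuclei at P3 and at 28.9 at E18.5. Col23a1 reached 84.5 in early nephron-like nuclei at E18.5. Col5a2 stood at 163 in loop of Henle-like nuclei at E18.5 and at 63.8 at P3. Several high values rest on few nuclei: Col5a3 at 56.1 in 24 neuron-like nuclei is 7 UMIs, and Col22a1 at 16.0 there is 2 UMIs. Col20a1 was highest in urothelium-like nuclei at E18.5 (17.3) and in loop of Henle-like nuclei at P3 (12.6).

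The abundant chains gave UMIs in every named class, tubule classes included. In proximal tubule-like nuclei Col1a1 stood at 160 and 78.1, Col1a2 at 150 and 82.3 and Col3a1 at 227 and 112 CPM. In ureteric epithelium-like nuclei the same genes stood at 166 and 79.7, at 165 and 94.4 and at 249 and 137. A Col1a2 UMI was found in 42.8% and 39.5% of the proximal tubule group, against 73.9% and 82.1% of interstitium-like nuclei, and at 1000 UMIs a nucleus in 14.4% and 8.45% against 39.1% and 40.2%. How much of the tubule level came from free RNA was not tested.

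The interstitium-like and mural-like nuclei were clustered again in each library, and zones of the stroma were named from markers with the collagens left out. At E18.5 these were nephrogenic zone (278 nuclei), cortical (1135), medullary (791) and papillary (492) stroma, mural nuclei (251) and ureteral smooth muscle (17). At P3 they were nephrogenic zone (558), cortical (829) and papillary (211) stroma, mural nuclei (33) and ureteral smooth muscle (24), with no cluster passing as medullary. Each zone was compared with the other named zones of its library. Counting only zones of 100 or more nuclei, 16 of 27 members were higher in at least 1 zone at E18.5, against 14% of genes, and 11 of 25 at P3, against 10.1%. Summed over all members the named interstitial zones differed little, with 3763 to 4744 CPM in the 4 at E18.5 and 4000 to 4568 in the 3 at P3. Unnamed stromal clusters of 627, 602, 480, 240 and 65 nuclei at E18.5 held 2964, 3738, 3437, 2616 and 3373 CPM. Those of 739, 418, 282 and 19 nuclei at P3 held 4501, 4859, 3696 and 2040. Single members differed more between the named zones.

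Cortical stroma was marked by Col14a1, which stood at 648 against 195 CPM at E18.5 (3.33, 3.10 to 3.57) and at 860 against 167 at P3 (5.14, 4.71 to 5.62). At E18.5 the other zones included medullary stroma, with 327 CPM of Col14a1. At P3 they left out unnamed stromal clusters of 739, 282, 418 and 19 nuclei, with 366, 371, 224 and 51.3 CPM. The ratios of Col14a1 at the 2 ages thus rest on unlike references. Col6a2 was the other called member, with 2.06 (1.82 to 2.33) and 2.21 (1.82 to 2.68). Col6a2 was at 1.96 with median ratio scaling and 1.97 with averaging over nuclei at E18.5. At P3 it was at 1.82 without called doublets, 1.81 with Leiden clustering, 1.70 with 20 neighbors and 1.69 against all other stromal nuclei. The count of 2 members at each age stands beside 1.82% of all genes (E18.5) and 2.48% (P3). Col23a1 was low in this zone, at 30.3 against 431 CPM at E18.5 and at 30.1 against 414 at P3.

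Nephrogenic zone stroma, which surrounds the progenitors at the kidney surface, was high in Col8a1 and Col8a2. Col8a1 stood at 299 against 17.1 CPM at E18.5 (17.5, 14.2 to 21.5) and at 113 against 25.9 at P3 (4.37, 3.5 to 5.48). These ratios left out unnamed stromal clusters. At E18.5 interstitium-like nuclei held 907 Col8a1 UMIs, against 254 in this zone and 67, 15 and 21 in cortical, medullary and papillary stroma. Most of the rest lay in unnamed clusters, which the value of 17.1 does not cover. At P3 unnamed clusters of 739, 418, 282 and 19 nuclei held 5.92, 14.2, 71.8 and 12.8 CPM. Col8a2 gave 4.02 (2.78 to 5.73) and 2.30 (1.75 to 3.04). Col25a1 gave 3.67 (3.0 to 4.46) and 11.8 (9.67 to 14.4), with 165 and 299 CPM in the zone. Against all other stromal nuclei, unnamed clusters included, the E18.5 ratio of Col25a1 was 1.97. The P3 ratio of Col25a1 also left out unnamed stromal clusters. Those of 739 and 282 nuclei held 225 and 155 CPM, and those of 418 and 19 nuclei held 53.3 and 77.0.

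At E18.5 Col24a1 (280 against 56.3, ratio 4.97, 4.24 to 5.82) and Col6a6 (5.35, 3.23 to 8.69) were called in the nephrogenic zone too. Col12a1 was at 482 against 239 (2.01, 1.81 to 2.24) but ranged down to 1.21 with other clusterings. That makes 6 called members, against 4.35% of genes. At P3 the count was 4, against 3.03%, and it included Col6a5 with 84 UMIs in the zone and 1 in the other zones (ratio 195, 34.1 to 7805). Col6a5 was thus compared only through this zone. Of those 84 UMIs, 70 lay in 23 nuclei of a 58-nucleus cluster that also had raised Foxd1, Ntn1 and Rspo3. At E18.5 Col6a5 had 26 UMIs in 13 nephrogenic zone nuclei, or 30.6 CPM, and was too sparse to compare.

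Medullary stroma was named at E18.5 alone, and 3 sparse members were called there, against 1.33% of genes. Col7a1 and Col6a4 reached the minimum of 50 UMIs only with the 41 and 26 UMIs of this zone. Col7a1 stood at 17.4 against 5.22 CPM (3.33, 2.08 to 5.34), Col6a4 at 11 against 4.09 (2.70, 1.52 to 4.74) and Col13a1 at 31.0 against 13.3 (2.33, 1.70 to 3.20). Col6a4 was at 1.90 against all other stromal nuclei, and Col13a1 at 1.38 without called doublets. At P3 an unnamed cluster of 739 nuclei with raised Alx1 and Penk, both on the medullary list, was compared with all other re-clustered stromal nuclei. Col13a1 (2.32, 1.83 to 2.94) and Col7a1 (2.25, 1.73 to 2.93) were higher there, as was Col25a1 (2.22, 2.03 to 2.43).

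Papillary stroma lies at the tip of the medulla. Col23a1 stood at 729 against 167 CPM at E18.5 (4.36, 4.04 to 4.70) and at 871 against 71.4 at P3 (12.2, 10.9 to 13.7). Col15a1 stood at 366 against 97.3 (3.76, 3.39 to 4.17) and 504 against 69.4 (7.25, 6.40 to 8.24). The P3 ratio of Col15a1 was 1.88 against all other stromal nuclei. Among these, an unnamed cluster of 418 nuclei with raised Lef1, Kcnip1 and Wnt4, all on the papillary list, held 568 CPM. The same cluster held 392 CPM of Col23a1. Unnamed clusters of 739, 282 and 19 nuclei held 172, 78.6 and 51.3 CPM of Col23a1. None of these was among the other zones at P3. At E18.5 the other zones included medullary stroma, with 416 CPM of Col23a1, so the 2 ratios of Col23a1 rest on unlike references. Col18a1 gave 2.19 (1.92 to 2.49) and 3.30 (2.80 to 3.87), and Col11a1 gave 2.04 (1.72 to 2.41) and 4.04 (3.36 to 4.87).

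Some of these genes were about as high or higher in other zones. Mural nuclei held Col18a1 at 185 and 244 CPM, beside 186 and 201 in the papilla, and ureteral smooth muscle held more Col23a1 than the papilla. In the papilla, Col19a1 was also called at E18.5 (2.39, 1.36 to 4.12) and Col7a1 at P3 (4.25, 2.54 to 7.12). Both reached the minimum of 50 UMIs only with their papillary UMIs, 24 and 35. The counts were 5 members at each age, beside 3.36% of all genes (E18.5) and 4.62% (P3). Col18a1 at P3 was 1.89 without called doublets, Col11a1 at E18.5 was 1.66 against all other stromal nuclei, and Col7a1 at P3 was 1.56 by the same measure.

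Mural cells are the pericytes, renin-lineage and vascular smooth muscle cells, and the nuclei named mural held less of many members. Of the 251 nuclei at E18.5, 205 lay in a cluster with raised Pdgfrb, Rgs5, Abcc9, Kcnj8, Notch3 and Ren1, led by Dkk2 and Serpini1. The 33 at P3 had raised Rgs5, Notch3, Ren1, Myh11 and Acta2, without Pdgfrb, Abcc9 or Kcnj8. Both lists are relative to the other stromal nuclei. Relative to the whole library, the P3 mural-like class of 34 nuclei also had raised Pdgfrb and Abcc9. A P3 cluster of 19 nuclei led by Dkk2 and Serpini1 stayed unnamed. The zones of the 2 ages may thus not hold the same cells. At E18.5, 9 of 27 members were lower than in the other zones, against 7.09% of genes, and at P3 19 of 25 were, against 14.3%. Col14a1 stood at 86.4 against 379 at E18.5 (0.228, 0.177 to 0.289) and at 31.4 against 491 at P3 (0.0640, 0.0174 to 0.164), the latter from 4 UMIs. Col19a1 was higher at both ages, with 6.27 (3.53 to 10.9) from 22 UMIs in 12 nuclei at E18.5 and 59.0 (33.5 to 104) from 29 UMIs in 9 of 33 nuclei at P3. At both ages Col19a1 reached the minimum of 50 UMIs only with these mural UMIs. At E18.5 Col25a1 stood at 108 against 50.9 CPM (2.12, 1.66 to 2.67), but at 1.83 with Leiden clustering, 1.45 with 20 neighbors and 1.24 against all other stromal nuclei. Col13a1 (8.69, 4.30 to 16.1) and Col18a1 (2.79, 1.88 to 4.00) were higher at P3. Col28a1 was at 31.4 CPM there, from 4 UMIs.

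Ureteral smooth muscle was a handful of nuclei in which 1 UMI is worth 9.45 CPM or more, yet Col23a1 was seen in most of them. It had 69 UMIs in 14 of 17 nuclei at E18.5 (1382 CPM, ratio to the other zones 4.87, 3.78 to 6.18). At P3 it had 195 UMIs in 23 of 24 nuclei (1843 CPM, 8.6, 7.37 to 10.0). Col6a3 at E18.5 (4.00, 2.58 to 5.94) and Col15a1 at P3 (2.66, 1.92 to 3.59) were also higher. Col9a2 passed 10 CPM only here, with 2 UMIs at P3.

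**Figure D3:**
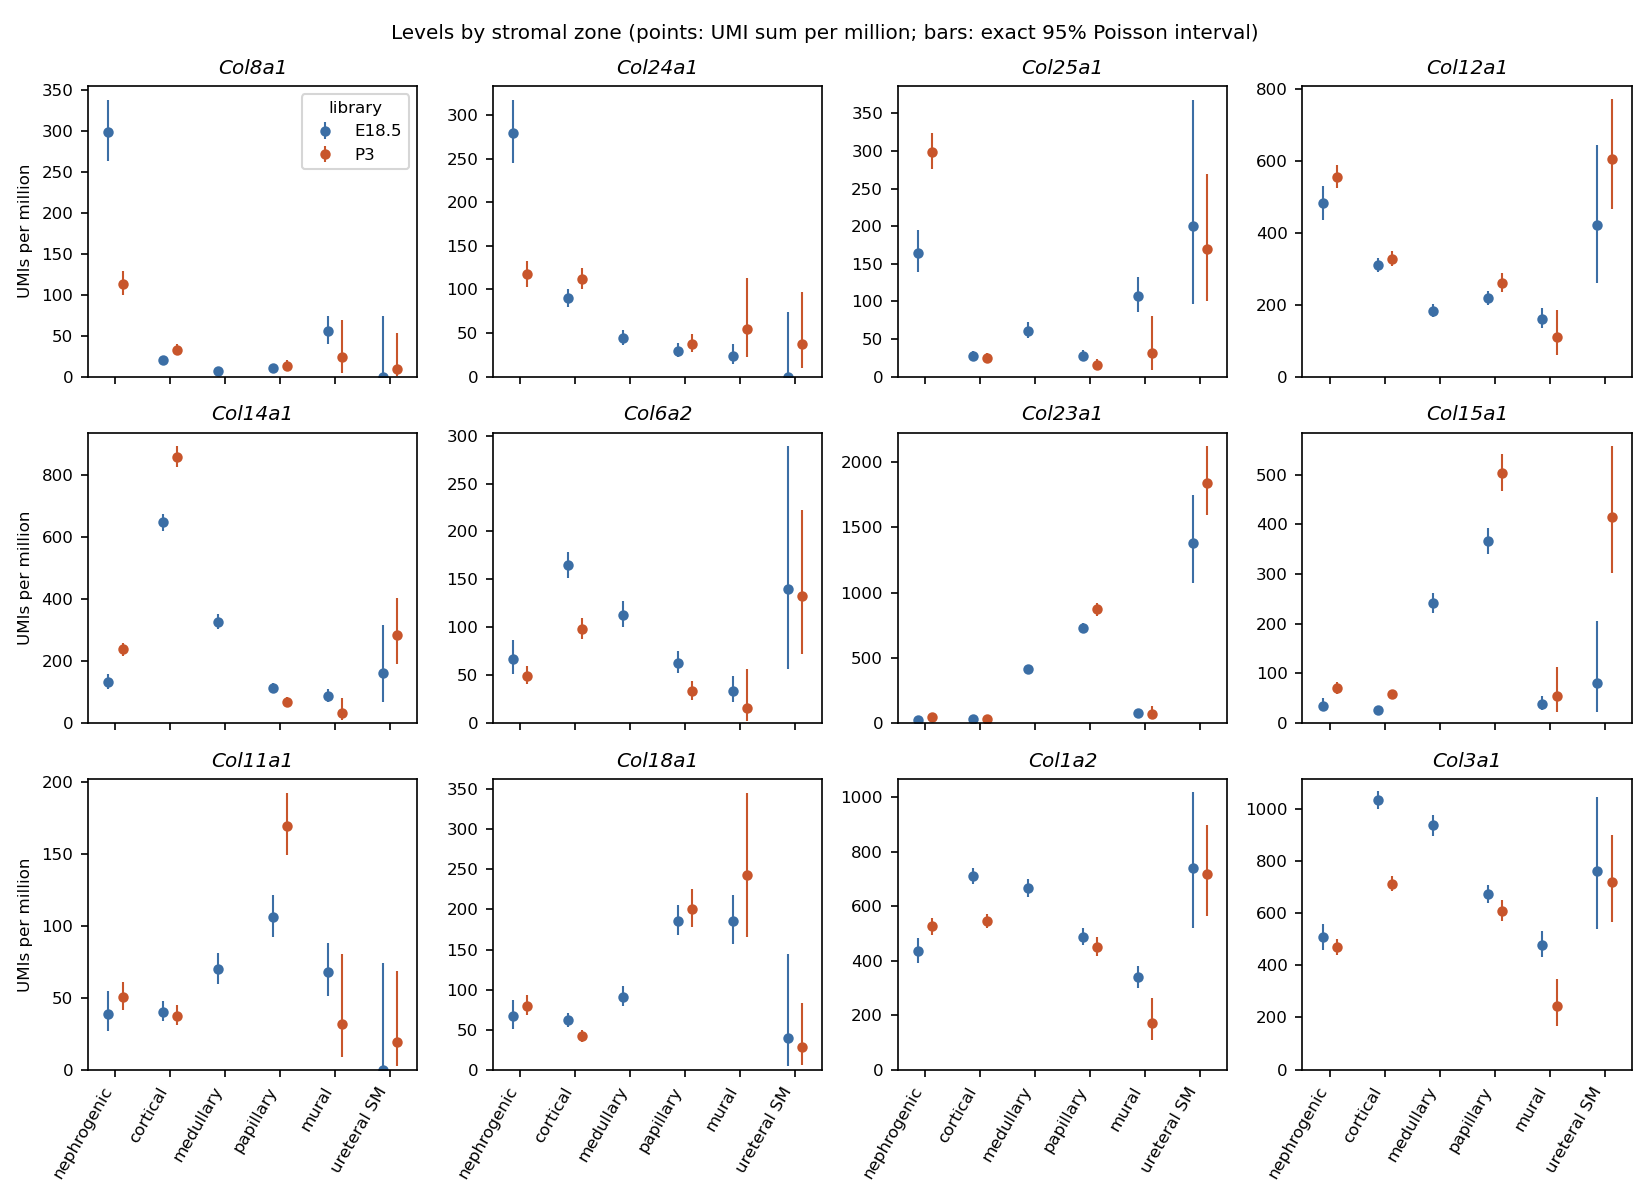
Level of 12 collagen genes in each stromal zone, in CPM, for E18.5 (blue) and P3 (orange), with exact 95% Poisson intervals. Col8a1, Col24a1 and Col25a1 are highest in the nephrogenic zone at E18.5 among the zones of 100 or more nuclei, Col14a1 in the cortex and Col23a1 and Col15a1 in the papilla, while Col1a2 and Col3a1 are spread over all interstitial zones.

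A cluster led by Ebf2 and Sntg1 was kept apart at each age, and the clusters may not hold the same cells. At E18.5 it was also led by Dlk1, Tnxb and Igf1 and had 5 raised interstitium markers. At P3 it was led by Car3, Pparg and Plin1 as well, its best list was the erythroid one (3 raised hemoglobin genes), and 2 interstitium markers were raised. Compared with interstitium-like nuclei, 11 of 29 members were higher at E18.5, against 6.78% of genes, and 6 of 29 at P3, against 11%. Col6a6 stood at 416 against 6.94 CPM at E18.5 (59.9, 47.0 to 76.7), in 77 of 131 nuclei, and at 231 against 3.41 at P3 (67.6, 47.1 to 98.1), in 28 of 71 nuclei. Col5a3 stood at 136 against 4.35 (31.2, 21.7 to 44.8) and 108 against 6.61 (16.4, 11 to 24.0). Col3a1 was at 2.31 (2.15 to 2.49) and 2.94 (2.72 to 3.17), Col1a2 at 2.44 (2.24 to 2.65) and 2.11 (1.91 to 2.33) and Col5a2 at 2.57 (2.31 to 2.85) and 2.19 (1.94 to 2.47). Lower members numbered 3 at E18.5, against 10.2% of genes, and 6 at P3, against 10%. Col23a1 was lower at both ages, with 0.305 (0.202 to 0.442) and 0.309 (0.202 to 0.454), as was Col13a1, from 2 UMIs each. The others were Col6a4 at E18.5, from 1 UMI, and at P3 Col26a1 (0.112, 0.0305 to 0.288), Col11a1 (0.294, 0.118 to 0.608), Col8a2 from 4 UMIs and Col8a1 from 1 UMI.

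The shallow cluster at E18.5 was led by Camk1d, Igf2, Hbb-bs and ribosomal protein and histone genes, and that at P3 by hemoglobin and mitochondrial genes. Col1a1 stood at 634 and 482 CPM there, Col1a2 at 635 and 592, Col3a1 at 962 and 747 and Col6a1 at 93.2 and 92.3, each above its interstitium-like level. Their ratios to the interstitium ran from 1.09 to 1.83 and none was called. In the same nuclei Col23a1 was at 22.9 and 49.0 CPM (0.112, 0.0904 to 0.138, and 0.210, 0.169 to 0.258, of the interstitium). Col24a1 gave 0.137 (0.101 to 0.18) and 0.416 (0.324 to 0.527), Col8a1 0.189 (0.137 to 0.254) and 0.495 (0.339 to 0.701), and Col5a2 0.394 (0.359 to 0.430) and 0.382 (0.336 to 0.433). In all, 11 of 31 members were lower than in the interstitium at E18.5, against 14% of genes, and 14 of 29 at P3, against 8.82%. Higher members numbered 4 at E18.5, against 18.3% of genes, and 1 at P3, against 23.6%. These were Col9a1 (4.41, 2.49 to 7.85), Col2a1 (3.86, 2.70 to 5.52), Col6a5 (2.46, 1.54 to 3.88) and Col6a6 (2.45, 1.78 to 3.35) at E18.5, and Col6a6 (2.17, 1.11 to 3.98) at P3. Col9a1 reached the minimum of 50 UMIs only with its 29 UMIs in the shallow cluster. The part of depth and of the leading genes in these ratios was not tested.

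Between the libraries, collagen levels in interstitium-like nuclei were mostly close. Of 31 members with 50 or more UMIs, 3 were higher at P3, against 2.81% of genes, and 2 were lower, against 13.4%. The median log2 ratio of P3 to E18.5 was 0.36 for the members and −0.17 for all genes. Col1a2 stood at 542 and 536 CPM (1.01, 0.980 to 1.04), Col3a1 at 675 and 755 (0.894, 0.871 to 0.919) and Col1a1 at 292 and 346 (0.844, 0.810 to 0.879). Col14a1 gave 1.25 (1.21 to 1.30) and Col12a1 1.40 (1.34 to 1.46).

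The 3 higher members were Col15a1, at 293 against 119 (2.46, 2.33 to 2.60), Col7a1, at 16.5 against 7.20 (2.29, 1.82 to 2.90), and Col6a5, at 6.82 against 3.31. Col6a5 gave a ratio of 2.06, which was below 2 with other clusterings (1.90 and 1.92). The 2 lower members were Col2a1, at 1.70 against 4.22 (0.404, 0.244 to 0.650), and Col6a6, at 3.41 against 6.94 (0.491, 0.344 to 0.693). Col6a6 turned to 1.26 with 20 neighbors. Col8a1 fell short of a call at 36.2 against 58.8 (0.615, 0.552 to 0.686).

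Long genes had higher ratios in general, from a median of 0.466 among genes spanning about 1.23 kb to 1.28 among genes spanning about 255 kb. Relative to genes of like span, Col15a1 was at 2.11, Col7a1 at 2.55, Col6a5 at 1.77, Col6a6 at 0.42 and Col2a1 at 0.45. The part of gene span in the ratios of single members was not tested beyond this.

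**Figure D4:**
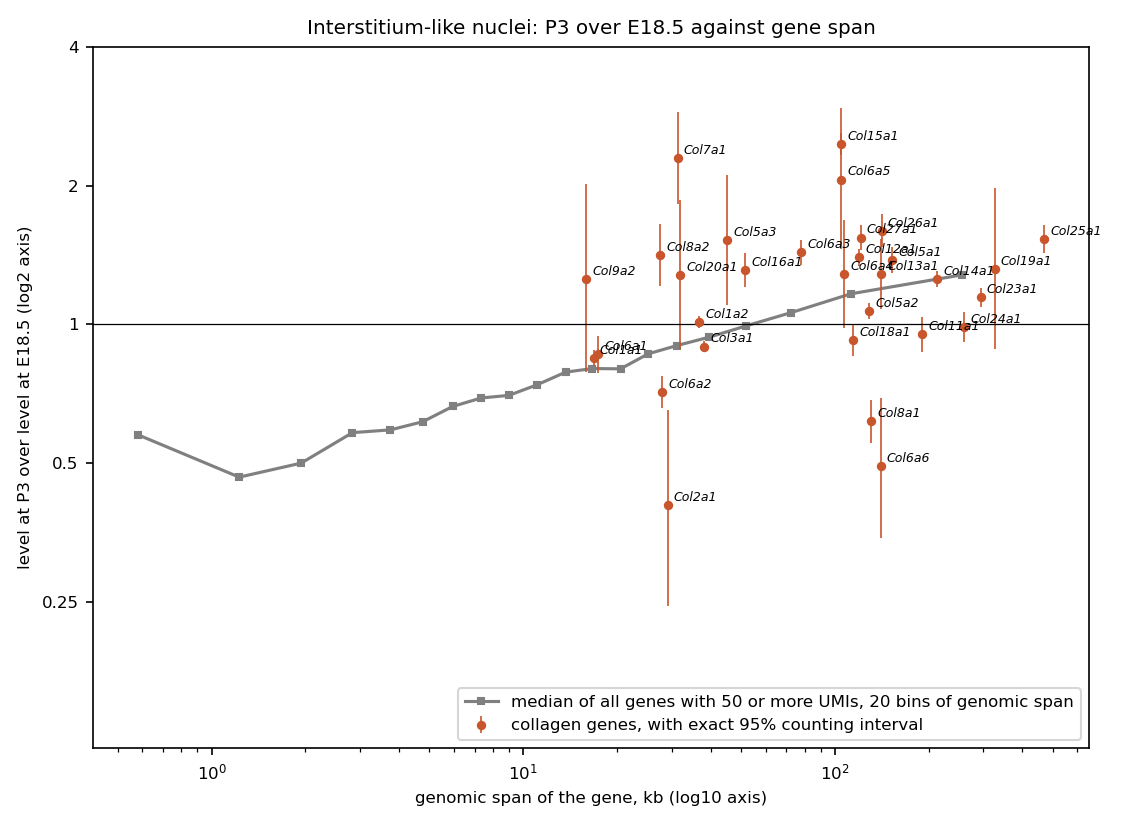
Ratio of P3 to E18.5 level in interstitium-like nuclei (log2 axis) against the genomic span of the gene in kb (log10 axis), for the 31 collagen genes with 50 or more UMIs (orange, with exact 95% counting intervals) and for the median of all genes in 20 bins of span (grey). The grey line climbs with span, with Col15a1 and Col7a1 above it and Col8a1, Col6a6 and Col2a1 below it.

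Within single zones and classes larger age contrasts were seen. In nephrogenic zone stroma Col8a1 was at 113 against 299 (0.378, 0.315 to 0.454), Col24a1 at 117 against 280 (0.419, 0.349 to 0.504) and Col26a1 at 68.4 against 22.3 (3.06, 1.89 to 5.23). This zone differed in makeup. At E18.5 it was a cluster of 278 nuclei with raised Foxd1, Ntn1 and Rspo3. An E18.5 cluster of 627 nuclei with raised Ntn1 and Fibin, and Aox3 and Gdnf among its leading genes, stayed unnamed and outside the zone. At P3 a cluster of 500 nuclei, also with Aox3 and Gdnf among its leading genes, had raised Ntn1, Fibin and Rspo3. Another P3 cluster, of 58 nuclei, had raised Foxd1, Ntn1 and Rspo3. In the latter Col8a1 was at 71.2 CPM, and Col24a1 and Col26a1 were each at 28.5 from 6 UMIs. The part of makeup in these ratios was not tested. In cortical stroma Col15a1 gave 2.21 (1.70 to 2.88) and Col8a2 2.08 (1.43 to 3.07). In endothelium-like nuclei Col13a1 stood at 81.7 against 18.0 (4.55, 3.42 to 6.13). In proximal tubule-like nuclei Col27a1 gave 5.00 (4.05 to 6.23). In early nephron-like nuclei Col9a1 gave 3.76 (2.22 to 6.79), Col26a1 2.80 (2.39 to 3.28), Col24a1 2.28 (1.62 to 3.27), Col25a1 2.04 (1.59 to 2.66) and Col2a1 2.01 (1.39 to 2.97). The P3 class held 1129 nuclei, of which 914 lay in a cluster led by Eya1, Snap91, Kcnq5 and Dpp6, which also led the separately named nephron progenitor-like cluster of E18.5. With those progenitors added to the E18.5 side, a comparison chosen after seeing the data, Col26a1 was at 1.03 (0.953 to 1.11), Col2a1 at 0.798 (0.652 to 0.972) and Col9a1 at 1.75 (1.35 to 2.27), none of them called. Col24a1 (2.98, 2.35 to 3.78) and Col25a1 (2.78, 2.32 to 3.34) were still above 2, and Col11a2 was lower (0.255, 0.141 to 0.433).

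The genes that fold, cut, cross-link, bind and degrade collagen were counted by the same rule, interstitium-like against other nuclei, for which 5.54% of all genes were higher at E18.5 and 7.66% at P3. Of the 20 folding and hydroxylation genes, 3 were higher at E18.5 and 2 at P3. P3h3, a prolyl hydroxylase family member, gave 2.27 (2.08 to 2.48) and 2.80 (2.55 to 3.07), P4ha2, a prolyl hydroxylase subunit, 2.25 (1.97 to 2.55) and 3.15 (2.68 to 3.70), and Plod1, a lysyl hydroxylase, 2.0 (1.82 to 2.20) and 1.93 (1.67 to 2.23). Of 12 procollagen cleavage and cross-linking genes compared, 4 were higher at E18.5 and 8 at P3. Adamts2, the main procollagen N-proteinase, gave 3.98 (3.64 to 4.34) and 5.22 (4.84 to 5.63), its relative Adamts14 3.36 (2.76 to 4.08) and 4.94 (4.14 to 5.89) and the lysyl oxidase Loxl3 2.77 (2.47 to 3.10) and 3.49 (3.10 to 3.94).

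Of the 19 fibril-binding matrix genes, 6 were higher at E18.5 and 11 at P3. Fbn1, fibrillin, gave 2.97 (2.84 to 3.11) and 3.86 (3.71 to 4.02), Thbs2, a thrombospondin, 2.86 (2.63 to 3.12) and 4.40 (4.10 to 4.72) and Fn1, fibronectin, 2.80 (2.71 to 2.89) and 4.14 (4.02 to 4.27). Of 13 collagen receptor genes compared, 2 were higher at E18.5 and 3 at P3. Ddr2, the receptor kinase for fibrillar collagen, gave 5.47 (5.19 to 5.77) and 5.72 (5.45 to 6.01), and Mrc2, an endocytic collagen receptor, 2.81 (2.64 to 2.98) and 3.65 (3.45 to 3.87). Of the degradation genes, 1 of 11 was higher at E18.5 and 2 of 10 at P3, and Ctsk, cathepsin K, gave 2.56 (1.98 to 3.30) and 3.03 (2.31 to 3.97).

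Between the ages in interstitium-like nuclei, 6 of the 20 folding genes were lower at P3, or 30%, against 13.4% of all genes. The 6 were named after their values were seen. Ppib, a collagen prolyl isomerase, gave 0.340 (0.317 to 0.365), and the collagen chaperone Serpinh1 gave 0.483 (0.451 to 0.516). P4ha1 gave 0.472 (0.444 to 0.501), P4ha3 0.434 (0.338 to 0.554), Plod1 0.461 (0.40 to 0.530) and Plod2 0.444 (0.415 to 0.475). Relative to genes of like span, 3 of the 6 remained under 0.5, namely P4ha1 at 0.476, P4ha3 at 0.483 and Plod2 at 0.419.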

How the data were processed

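Nuclei were isolated with a Dounce homogenizer and lysis buffer, passed through strainers and sequenced with 10x chemistry. The authors deposited raw UMI counts per gene and barcode for each library. The submitters' processing notes name Cell Ranger 5.0.1 and mm10 for both, while the file headers give 7.0.0 for E18.5 and 5.0.1 for P3. Whether intronic reads were counted is not given in the sources used here. The counts were filtered at 3 median absolute deviations (UMIs, genes, mitochondrial share), scrublet (scanpy 1.11.5) marked doublets, which were kept, and nuclei were clustered with scran 1.30.0 (2000 variable genes without collagens or the pathway lists, 50 components, 10 neighbors, Walktrap). Intervals came from scipy 1.17.1.

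A cluster was named when at least 3 markers were raised, unless another list came close or held more of its leading genes. Clusters best matched by a mural or smooth muscle list, but with weak marks of it, went to the interstitium if at least 3 interstitium markers were raised. This put a P3 cluster of 191 nuclei with raised Myh11, Actg2 and Acta2 among the interstitium-like nuclei. After the clusters were seen, it was decided that stromal lists do not compete with each other, that hemoglobin genes without Alas2 name nothing, that clusters mostly called doublets stay unnamed and that the Ebf2-led and shallow clusters stay apart. Every member at 10 or more CPM in a named class or zone is named with values, and of each pathway list the 3 with the highest E18.5 ratio among those called. The members and lists were chosen with earlier results of these data known. Totals were 77321253 UMIs at E18.5 and 70055219 at P3 after filtering. A gene with 0 UMIs on a side was set to 3 counts. Ratios and intervals were run on simulated Poisson counts, the error that the intervals assume. The simulation held no variation between nuclei or libraries, so it checks the computation alone. Alternatives changed doublets, clustering, scaling, fold, UMI minimum, free RNA, weighting, shared barcodes and gene span. Gene positions are from GENCODE M21 and promoters from RefSeq.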

Additional observations from a re-analysis of the deposited data

Results flagged for a closer look

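Col26a1 moved in opposite directions at the 2 ages. Its level in interstitium-like over other nuclei was 0.832 (0.775 to 0.892) in the E18.5 library and 1.62 (1.52 to 1.72) in the P3 library. Each value is 1 library, and the difference was not tested. Interstitium-like nuclei held 62.0 CPM and other nuclei 74.5 at E18.5, and 99.0 and 61.1 at P3. The other nuclei were all those outside the interstitium, named or not. A nephron progenitor-like class, which held 204 CPM of Col26a1, was named at E18.5 alone, but this naming does not enter the ratio.

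Col12a1 in cortical stroma over the other zones was 1.32 (1.21 to 1.43) in the E18.5 library and 0.766 (0.708 to 0.829) in the P3 library. This difference was not tested either. A medullary zone, with Col12a1 at 182 CPM, was among the other zones at E18.5 and was missing at P3.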

How the results depend on the processing

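No paired analysis was possible because each age had 1 library. Of 130 counts recomputed, 110 stayed within 1.5 times of the reported count and 20 did not. A ratio of 3 in place of 2 gave 12 members higher in the E18.5 interstitium (reported 20), 10 with a zone at E18.5 (16), 3 and 13 pathway genes at E18.5 and P3 (16 and 26), and 0 members higher and 0 lower between the ages (3 and 2). A ratio of 1.5 gave 31 and 44 pathway genes and 7 members higher at P3. Subtracting the lowest class level as free RNA gave 31 and 40 pathway genes. For members with a zone, a minimum of 200 UMIs gave 10 at E18.5, a minimum of 3 UMIs gave 26 and 18, and Leiden clustering gave 17 at P3 (reported 11). Members lower at P3 were 1 with doublets removed, Leiden, 20 neighbors or median ratio scaling, and 0 with 200 UMIs. Of 3884 single ratios, 3189 stayed, 694 moved and 1 called ratio crossed 1, Col6a6 between the ages (0.491 as reported, 1.26 with 20 neighbors). Causes were not tested. Adding the Ebf2-led clusters, limiting the other nuclei to named classes outside the stroma and taking all other stromal nuclei as the other zones were chosen after seeing the data. Depth limits the zones of 17 to 33 nuclei most, where 3 UMIs are worth 23.6 to 60.1 CPM.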
